A study of Mus musculus with 6 samples.

Results

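The 10 genes described here encode the catalytic subunits of polycomb repressive complex 1 (PRC1) and the subunits that mark its variant forms: Ring1, Rnf2, Pcgf1, Pcgf3, Pcgf5, Pcgf6, Kdm2b, Rybp, Yaf2 and L3mbtl2. They were taken by symbol from a table of 37991 Ensembl gene IDs, and 10 of 10 were found and were abundant enough to test. The rule names the genes and uses no threshold on a measured value, but the set was proposed with earlier results of these data known. Levels are from RNA-seq of mouse primordial germ cell-like cells (PGCLCs), a culture model of the first germ cells of the embryo, on day 4 of induction. The Ezh2 KO group (3 libraries, labelled Ezh2-/-, CreERT2) had 4-hydroxytamoxifen, dissolved in ethanol, added to the induction medium, and the Ctrl group (3 libraries, labelled Ezh2f/f, CreERT2) had only the ethanol. Both groups share the C57BL/6 strain and the tamoxifen-activated Cre (CreERT2), and began as embryonic stem cells, which grew in N2B27 medium with PD0325091, CHIR99021 and LIF. Both passed through 2 days as epiblast-like cells in bFGF, activin A and KSR and were then aggregated with BMP2, SCF, LIF and EGF. Since only the Ezh2 KO group saw 4-hydroxytamoxifen, the compound and the deletion cannot be told apart. Cells were sorted before RNA extraction, with no gate given in the sources used here, and the labels do not say that replicates came from separate cultures. The p-values therefore reflect only how much these libraries vary, which may be technical.

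PRC1 attaches a single ubiquitin to histone H2A (the mark H2AK119ub). RING1 and RNF2 (also called RING1A and RING1B) are its alternative ubiquitin ligases, and each pairs with 1 of 6 PCGF proteins, which decide the kind of complex. Canonical PRC1, with PCGF2 or BMI1, carries a CBX protein that reads H3K27me3, the mark of PRC2 and its enzyme EZH2. Variant PRC1 carries RYBP or YAF2 instead, does not need H3K27me3 to bind chromatin, and makes most ubiquitinated H2A in mouse embryonic stem cells, a mark that in turn is bound by PRC2 subunits. The comparison therefore asks whether the transcripts of the variant complexes differ when the PRC2 enzyme has been targeted in early germ cells.

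As the check of the labels, Ezh2 itself (ENSMUSG00000029687) stood at 40.8, 67.1 and 70.0 CPM (the library's reads scaled to a common total, with edgeR's TMM factors) in the Ezh2 KO libraries and at 91.8, 78.1 and 95.3 CPM in the Ctrl libraries. Each Ezh2 KO library was below each Ctrl library, but the difference did not pass over all genes (log2 fold change -0.58 ± 0.23 SE, adjusted p = 0.976 in edgeR's quasi-likelihood test), and reads outside the deleted exons are counted too. Total counts per library ran from 27072150 in Ezh2 KO replicate 2, close to the 27358959 of Ctrl replicate 2, to 49382146 in Ctrl replicate 1. All 11 listed germ cell markers were tested, and their summed level ran from 1327 to 1746 CPM in Ezh2 KO and from 1655 to 1849 CPM in Ctrl. Nanog (mean 506.6 CPM in Ezh2 KO and 513.6 CPM in Ctrl) and Pou5f1 (277.9 and 362.9 CPM) weigh most in this sum. Prdm1 (4.30 CPM in Ezh2 KO and 5.96 CPM in Ctrl) and Nanos3 (10.9 and 8.99 CPM) add little to it. Of the 11 markers, 8 had a negative log2 fold change, and the median was -0.29. Over all tested genes 51.3% were positive and the median was 0.01. Without Ezh2 KO replicate 2 and Ctrl replicate 1, chosen after seeing the data, 8 markers were still negative and the median was -0.14. Of other cell types, neural markers summed to 0.716 to 1.00 CPM in Ezh2 KO and 1.98 to 2.99 CPM in Ctrl (4 of 5 found), and fibroblast markers to 2.51 to 5.30 CPM in Ezh2 KO and 5.59 to 8.29 CPM in Ctrl (7 of 7 found). For both lists every Ezh2 KO library was below every Ctrl library, at levels far under those of the germ cell markers. The groups did not overlap for 3 of 3 tested neural and 1 of 4 tested fibroblast markers, against 8.09% of tested genes. Most of the genes found (3 of 4 neural and 4 of 7 fibroblast) were under 1 CPM in every library. Mesoderm and endoderm markers summed to 17.4 to 24.1 CPM in Ezh2 KO and 16.4 to 22.2 CPM in Ctrl. Of their 9 listed symbols 8 were found, and the one not found, Tbxt, is another name of T, which was. Trophoblast markers (5 of 5 found) summed to 29.2 to 37.6 CPM in Ezh2 KO and 26.3 to 36.3 CPM in Ctrl. Epiblast markers (4 of 4 found) summed to 81.9 to 105.4 CPM in Ezh2 KO and 56.2 to 71.9 CPM in Ctrl, with Pou3f1 at 0 in every library. The ranges of the epiblast sum did not overlap, with Ezh2 KO higher, and most of the sum was Dnmt3b. Of the 3 tested epiblast markers 1, Dnmt3b, had groups that did not overlap, against 8.09% of tested genes. Blood and endothelium markers (6 of 6 found) summed to 113.9 to 194.9 CPM in Ezh2 KO and 116.7 to 194.1 CPM in Ctrl, nearly all of it Pecam1 with 4 of the 6 under 1 CPM in every library. The part of these markers in the results below was not tested, and in bulk samples fewer cells of a type and less RNA per cell cannot be told apart. Libraries of one group lay far apart: the first principal component (55.5% of the variance) placed Ezh2 KO replicate 2 (78.0) and Ctrl replicate 1 (-61.4) at its ends, with the other 4 between -35.5 and 13.3. Ezh2 KO replicate 2 also had the fewest counts and the largest share of counts from mitochondrial genes (3.37%). Ctrl replicate 1 had the most counts and the smallest such share (1.79%). The part of depth or of this share in the results below was not tested.

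Transcripts of the 10 subunit genes were present in every library, and no member differed between Ezh2 KO and Ctrl beyond the spread between libraries. Of the 10 members, 0 had an adjusted p under 0.05 in edgeR, where 0.0% of 16420 tested genes did, and 0 had an unadjusted p under 0.05, against 2.8% of tested genes. The count at an unadjusted p under 0.05 was also 0 with the replicate number as a block, where 9.1% of tested genes had one, and DESeq2 called 0 of the 10 against 0.122% of tested genes. In 0 of 10 did the 3 Ezh2 KO libraries lie on one side of the 3 Ctrl libraries, against 8.09% of tested genes. Log2 fold changes (Ezh2 KO over Ctrl) ran from -0.59 for Ring1 to 0.26 for Rnf2, with 5 positive, 5 negative and a median of 0.04, beside a median of 0.01 over all tested genes. The data bound these differences unequally. For 7 members the 95% interval lay inside a 2-fold change in either direction, as it did for 53.7% of tested genes, and for the other 3 (Ring1, L3mbtl2 and, at its edge, Pcgf6) it did not. With the replicate number as a block, 8 members had such an interval, Pcgf6 now among them (-0.80 to 0.36), against 64.8% of tested genes. The highest library was at least 2 times the lowest for 2 members, Ring1 and L3mbtl2, as for 49.6% of tested genes.

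**Figure D1:**
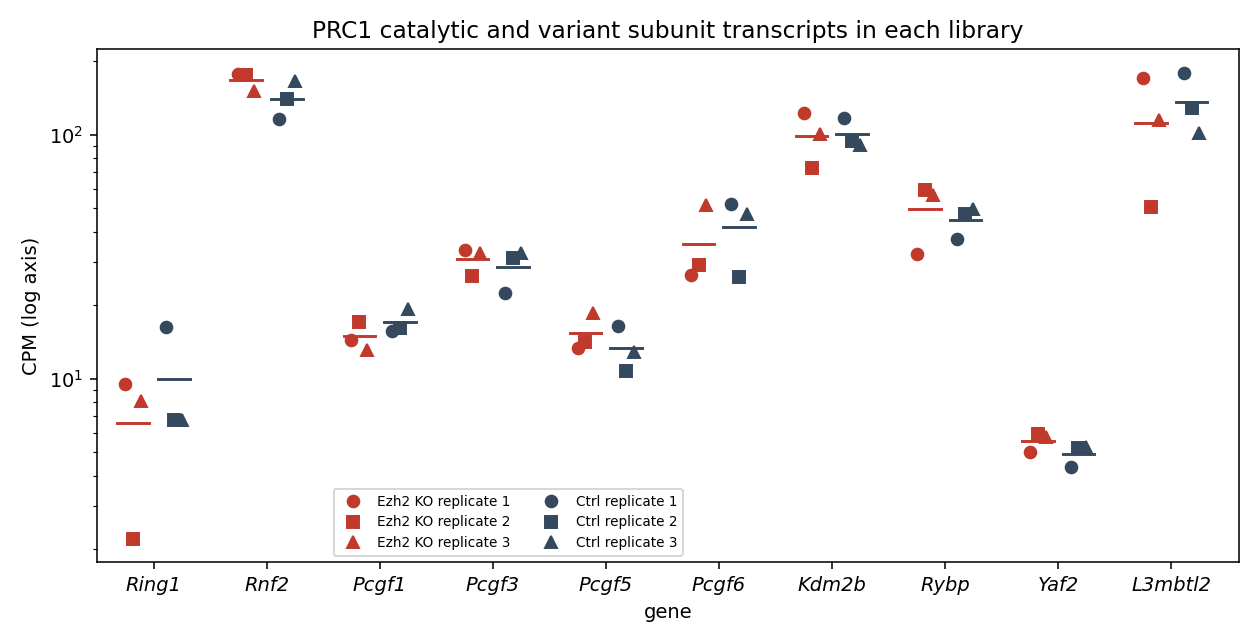
CPM of each gene in each library on a log axis, Ezh2 KO in red at the left and Ctrl in blue-grey at the right of each gene, with marker shape for the replicate number and a bar for the mean of 3 libraries. The groups overlap for each gene, and Ring1 has the widest spread, from 2.20 CPM in Ezh2 KO replicate 2 to 16.3 CPM in Ctrl replicate 1.

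The catalytic pair was unequal in level, with Rnf2 far above Ring1 in each library. Rnf2 (ENSMUSG00000026484, chromosome 1) encodes the ligase that is essential for mouse gastrulation. Its level was 177, 175.3 and 150.2 CPM in Ezh2 KO replicates 1 to 3 and 115.9, 139.8 and 165.4 CPM in Ctrl replicates 1 to 3. The lowest Ezh2 KO library lay below the highest Ctrl library, so the groups overlapped, and the log2 fold change was 0.26 ± 0.17 SE (95% interval -0.13 to 0.64, adjusted p = 0.976 in edgeR). Rnf2 was higher in Ezh2 KO in 2 of the 3 same-numbered pairs. An antisense neighbour, Trmt1l, overlaps the annotated span of Rnf2, and the overlap of their exons was not examined. The use of strand in counting is not given in the sources used here. Whether reads of Trmt1l affect the count of Rnf2 is therefore not known.

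Ring1 (ENSMUSG00000024325, chromosome 17) encodes the paralogous ligase, which can stand in for RNF2 in part. It had 9.55, 2.20 and 8.08 CPM in Ezh2 KO replicates 1 to 3 and 16.3, 6.74 and 6.79 CPM in Ctrl replicates 1 to 3. Ezh2 KO replicate 2 was the lowest and Ctrl replicate 1 the highest of the 6, and the other 4 lay between 6.74 and 9.55 CPM, with the Ezh2 KO libraries above the Ctrl libraries among them. The highest library was 7.41 times the lowest, a spread that 4.02% of tested genes reached, and the counts behind it were 57 reads in Ezh2 KO replicate 2 and 791 in Ctrl replicate 1. The log2 fold change of -0.59 ± 0.56 SE (95% interval -1.89 to 0.71, adjusted p = 0.976 in edgeR) therefore bounds little. It was -0.17 without Ezh2 KO replicate 2, -0.03 without Ctrl replicate 1 and 0.38 without both, a change of direction.

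The coding sequences of the pair show how close the catalytic genes are and how they part in base composition. Shown are the 90 bases of each that align best without a gap, from the longest annotated coding sequence of GENCODE M21, with G and C in capitals; they lie at coding bases 184 to 273 of Ring1 and 193 to 282 of Rnf2, in the 5′ part of both.
Ring1: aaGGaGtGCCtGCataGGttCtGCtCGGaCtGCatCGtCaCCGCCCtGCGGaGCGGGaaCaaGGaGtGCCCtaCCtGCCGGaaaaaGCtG
Rnf2: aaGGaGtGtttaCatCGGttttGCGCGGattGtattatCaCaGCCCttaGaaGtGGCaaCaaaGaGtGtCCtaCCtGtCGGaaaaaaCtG
The windows share 70 of 90 bases, yet 55 of 90 are G or C in Ring1 and 40 of 90 in Rnf2. Over the whole coding sequence the GC content was 62.6% for Ring1 (1218 bases) and 45.1% for Rnf2 (1008 bases). The longest run of identical bases between the coding sequences was 14.

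Levels of different genes can be set side by side only per length, here as CPM per kilobase of annotated exon. On that scale Ring1 made up 6.42%, 1.57% and 6.40% of the summed level of Ring1 and Rnf2 in Ezh2 KO replicates 1 to 3 and 15.2%, 5.78% and 4.97% in Ctrl replicates 1 to 3. The mean share was 4.8% ± 2.80 in Ezh2 KO and 8.64% ± 5.68 in Ctrl (SD, n = 3 each), and the groups overlapped. The transcripts of Ring1 (60.7% GC) and Rnf2 (39.5% GC) also differ in base composition, for which the scale per length makes no correction. The part of GC content in these shares was not tested.

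RYBP and YAF2 are the paralogous subunits that take the place of a CBX protein in variant PRC1 and stimulate its ligase. Rybp (ENSMUSG00000072872, chromosome 6) stood at 32.4, 59.4 and 56.8 CPM in Ezh2 KO replicates 1 to 3 and 37.5, 47.4 and 49.5 CPM in Ctrl replicates 1 to 3. In both groups replicate 1 was the lowest library, and the groups overlapped (log2 fold change 0.15 ± 0.26 SE, 95% interval -0.45 to 0.74, adjusted p = 0.977 in edgeR).

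Yaf2 (ENSMUSG00000022634, chromosome 15) had the lowest mean CPM of the members in both groups, at 5.00, 5.95 and 5.76 CPM in Ezh2 KO replicates 1 to 3 and 4.35, 5.18 and 5.24 CPM in Ctrl replicates 1 to 3. It was the 1 member with the same direction in all 3 same-numbered pairs, higher in Ezh2 KO by 0.20, 0.20 and 0.14 on the log2 scale, where 32.6% of tested genes had 1 direction in all 3 pairs. The log2 fold change was 0.18 ± 0.25 SE (95% interval -0.39 to 0.75, adjusted p = 0.976 in edgeR), and 146 to 233 reads per library stand behind it. Per kilobase, Yaf2 made up 22.9% ± 4.50 of the summed Rybp and Yaf2 level in Ezh2 KO and 21.8% ± 0.814 in Ctrl (SD, n = 3 each). The wide spread in Ezh2 KO came from replicate 1, with a Yaf2 share of 28.1% where the other 5 libraries had 20.2% to 22.7%.

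The coding sequences of this pair are closer to each other than those of the ligases. Shown in the same way are coding bases 67 to 156 of Rybp and 61 to 150 of Yaf2, with G and C in capitals.
Rybp: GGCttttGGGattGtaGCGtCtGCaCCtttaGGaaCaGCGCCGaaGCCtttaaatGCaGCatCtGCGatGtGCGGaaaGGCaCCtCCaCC
Yaf2: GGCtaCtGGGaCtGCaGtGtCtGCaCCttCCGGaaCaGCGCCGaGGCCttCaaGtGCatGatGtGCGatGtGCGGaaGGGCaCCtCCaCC
These windows share 76 of 90 bases (84.4%), and the longest run of identical bases between the coding sequences was 23. Only a read that lies wholly within such an identical run would match both coding sequences without a mismatch. Read length was not examined, and the rule for reads shared between genes is not given in the sources used here.

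KDM2B and PCGF1 define the variant complex PRC1.1, which KDM2B brings to unmethylated CpG islands by its CXXC zinc finger. Kdm2b (ENSMUSG00000029475, chromosome 5) was at 122.3, 72.9 and 101.0 CPM in Ezh2 KO replicates 1 to 3 and 116.7, 94.4 and 91.0 CPM in Ctrl replicates 1 to 3. The Ezh2 KO libraries enclosed the Ctrl libraries, with the highest and the lowest value of the 6 both in Ezh2 KO, and the log2 fold change was -0.03 ± 0.22 SE (95% interval -0.52 to 0.47, adjusted p = 0.993 in edgeR). It changed sign without Ezh2 KO replicate 2 (0.16) or Ctrl replicate 1 (0.091). Rnf34 and A930024E05Rik overlap Kdm2b on the other strand in the annotation.

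Kdm2b is transcribed from separate starts, and an internal one gives a short protein that lacks the demethylase domain but keeps the CXXC finger. The counts join all transcripts of the gene, so these forms are not separated here. RefSeq (GRCm38.p6, another build than the mm9 named by the submitters) lists 4 starts of Kdm2b over 88.7 kb. The 250 bases before the outermost starts are shown, on the minus strand and with each CG in capitals, because CpG sites are what the CXXC finger binds.
Kdm2b upstream start, chr5:122989100-122989349: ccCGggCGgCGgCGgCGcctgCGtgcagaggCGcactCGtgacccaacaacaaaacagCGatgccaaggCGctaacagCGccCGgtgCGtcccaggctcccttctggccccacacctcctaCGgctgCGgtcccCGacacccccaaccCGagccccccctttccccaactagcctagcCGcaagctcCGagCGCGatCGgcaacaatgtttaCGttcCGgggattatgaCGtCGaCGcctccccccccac
Kdm2b internal start, chr5:122900351-122900600: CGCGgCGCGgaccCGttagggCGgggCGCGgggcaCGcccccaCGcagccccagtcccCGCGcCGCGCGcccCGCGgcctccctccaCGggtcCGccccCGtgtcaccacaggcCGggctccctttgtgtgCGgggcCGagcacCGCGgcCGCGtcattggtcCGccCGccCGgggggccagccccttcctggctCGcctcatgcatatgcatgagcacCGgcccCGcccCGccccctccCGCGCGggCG
The upstream window holds 27 CG and the internal one 38, against a median of 6 over 32851 RefSeq promoter windows of this length, of which 8.6% hold 27 or more and 1.9% hold 38 or more. The windows of the other 2 starts, which lie near these, hold 12 CG (upstream, a count reached by 33.5% of windows) and 36 (internal, reached by 2.6%). Every listed window of the other members with an entry (Ring1, Rnf2, Pcgf3, Pcgf6 and L3mbtl2) held 13 to 30, and the 3 windows of Pcgf5 held 4 to 28.

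Pcgf1 (ENSMUSG00000069678, chromosome 6), the PCGF partner of KDM2B, varied 1.47-fold over the libraries. It was at 14.4, 17.1 and 13.1 CPM in Ezh2 KO replicates 1 to 3 and at 15.7, 16.2 and 19.4 CPM in Ctrl replicates 1 to 3. Ezh2 KO replicates 1 and 3 were below all Ctrl libraries and Ezh2 KO replicate 2 was not, and the log2 fold change was -0.20 ± 0.22 SE (95% interval -0.70 to 0.30, adjusted p = 0.976 in edgeR). The other PRC1.1 partners were counted as a list. Of 4 tested genes, 0 passed in either direction, and the median log2 fold change was 0.10. The named ones, of smallest unadjusted p, were Usp7, a deubiquitinase, at 275.7 ± 21.4 CPM in Ezh2 KO and 244.6 ± 52.2 CPM in Ctrl, and the corepressor Bcor, at 35.97 ± 7.23 CPM in Ezh2 KO and 31.9 ± 7.44 CPM in Ctrl (SD, n = 3 each).

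**Figure D2:**
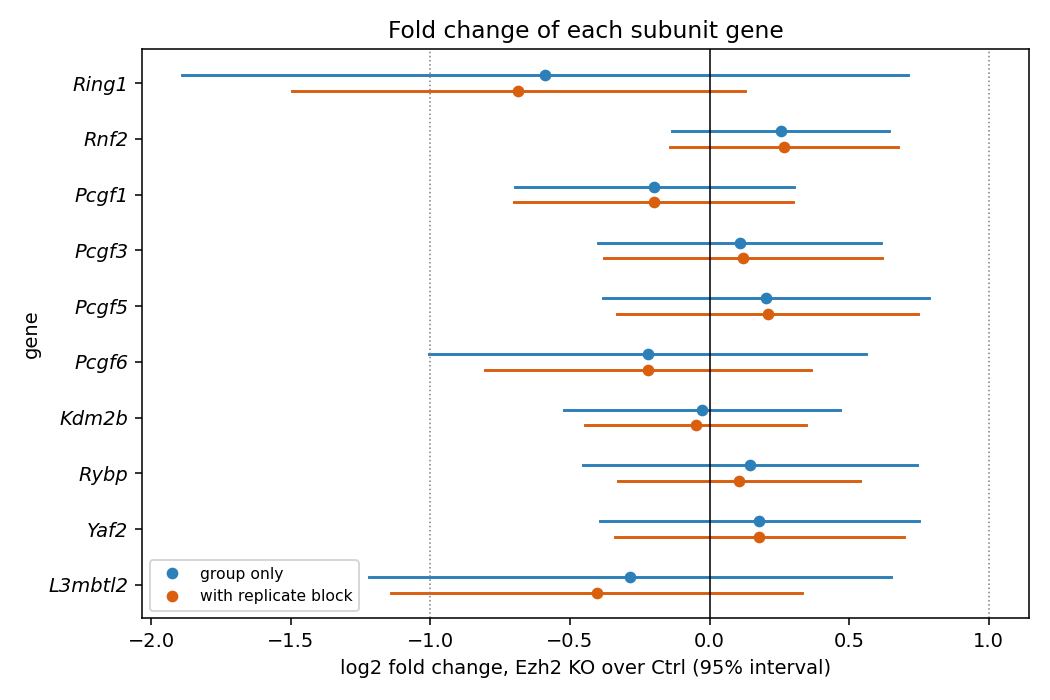
Log2 fold change (Ezh2 KO over Ctrl) of each gene with its 95% interval, from the fit on group alone in blue and with the replicate number as a block in orange; dotted lines mark a 2-fold change. Each interval includes 0, and Ring1 has the widest, from -1.89 to 0.71 in the fit on group alone.

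PCGF3 and PCGF5 have overlapping roles and form PRC1.3 and PRC1.5, which ubiquitinate H2A broadly and act on the inactive X chromosome in mouse. Pcgf3 (ENSMUSG00000033623, chromosome 5) was at 33.8, 26.4 and 32.8 CPM in Ezh2 KO replicates 1 to 3 and 22.5, 31.2 and 32.7 CPM in Ctrl replicates 1 to 3, and the groups overlapped. Its log2 fold change was 0.11 ± 0.22 SE (95% interval -0.40 to 0.61, adjusted p = 0.978 in edgeR), and -0.043 without Ctrl replicate 1, the lowest library. Pcgf5 (ENSMUSG00000024805, chromosome 19) was at 13.3, 14.2 and 18.6 CPM in Ezh2 KO replicates 1 to 3 and 16.4, 10.8 and 12.9 CPM in Ctrl replicates 1 to 3. Ezh2 KO replicate 3 was the highest and Ctrl replicate 2 the lowest, with the others interleaved, and the log2 fold change was 0.20 ± 0.25 SE (95% interval -0.38 to 0.79, adjusted p = 0.976 in edgeR). Of 6 tested partners of these complexes, 0 passed, with a median log2 fold change of -0.22. The named ones were Fbrs, an AUTS2-related subunit gene, at 4.70 ± 1.20 CPM in Ezh2 KO and 6.37 ± 1.58 CPM in Ctrl, and Auts2, which links PRC1 to activation in mouse neural cells, at 13.4 ± 2.01 CPM in Ezh2 KO and 17.1 ± 4.35 CPM in Ctrl (SD, n = 3 each).

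PCGF6 and L3MBTL2 belong to PRC1.6, which sits with MGA, MAX and E2F6 at promoters of germline genes and keeps them silent in mouse embryonic stem cells. Pcgf6 (ENSMUSG00000025050, chromosome 19) was at 26.6, 29.2 and 51.4 CPM in Ezh2 KO replicates 1 to 3 and 51.8, 26.1 and 47.1 CPM in Ctrl replicates 1 to 3. Both groups held libraries between 26.1 and 29.2 CPM and libraries between 47.1 and 51.8 CPM, so the spread lay within the groups. The log2 fold change was -0.22 ± 0.34 SE (95% interval -1.004 to 0.562, adjusted p = 0.976 in edgeR).

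L3mbtl2 (ENSMUSG00000022394, chromosome 15), an MBT-domain protein gene, was at 170.2, 50.5 and 114.6 CPM in Ezh2 KO replicates 1 to 3 and 179.1, 128.2 and 101.2 CPM in Ctrl replicates 1 to 3. As for Ring1, Ezh2 KO replicate 2 was the lowest and Ctrl replicate 1 the highest, a 3.55-fold spread that 19.1% of tested genes reached. The log2 fold change was -0.28 ± 0.41 SE (95% interval -1.22 to 0.65, adjusted p = 0.976 in edgeR), and 0.072 without Ezh2 KO replicate 2. The antisense neighbour Chadl overlaps this gene in the annotation.

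The other proteins of PRC1.6 and its germline targets were counted as lists. Over all tested genes 51.3% had a positive log2 fold change and the median was 0.01. Of 9 tested partners 0 passed, with 7 negative and a median of -0.06. Hdac1, a histone deacetylase gene, was the partner of smallest unadjusted p, at 653, 527 and 571 CPM in Ezh2 KO replicates 1 to 3 and 715, 646 and 784 CPM in Ctrl replicates 1 to 3. Only 1 of its Ezh2 KO libraries exceeded any Ctrl library (log2 fold change -0.29 ± 0.14 SE, adjusted p = 0.976 and unadjusted p = 0.0690 in edgeR). Max, which encodes the DNA-binding partner of MGA, stood at 112.1 ± 36.1 CPM in Ezh2 KO and 143 ± 3.17 CPM in Ctrl (SD, n = 3 each). Each of its Ezh2 KO libraries (137, 70.7 and 129 CPM) lay below each Ctrl library (145, 139 and 145 CPM), the 1 such gene of the 9 partners, against 8.09% of tested genes, with replicate 2 the farthest below (adjusted p = 0.976 in edgeR). Of the 14 germline targets tested, 0 passed, 10 were positive and 4 negative, and the median log2 fold change was 0.09. By the same rule the genes named are Meioc, a meiosis regulator, at 4.12 ± 0.716 CPM in Ezh2 KO and 6.75 ± 3.05 CPM in Ctrl, and Taf7l, a germ cell transcription factor subunit gene, at 0.968 ± 0.507 CPM in Ezh2 KO and 1.79 ± 0.959 CPM in Ctrl (SD, n = 3 each). With the replicate block, 0 of the 9 partners and 2 of the 14 targets had an unadjusted p under 0.05 in edgeR, against 9.1% of tested genes. The 2 were Taf7l, lower in Ezh2 KO, and Hormad1, higher, and 0 passed after adjustment.

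**Figure D3:**
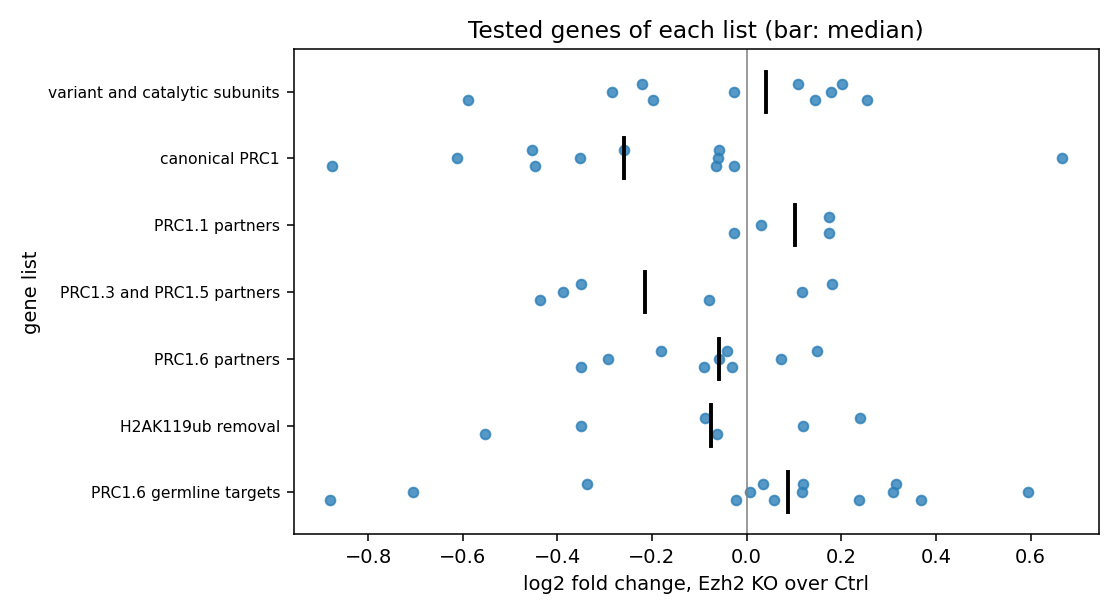
Log2 fold change (Ezh2 KO over Ctrl) of each tested gene, as points, and the median, as a bar, for the 10 subunit genes and 6 lists of partner, opposing and target genes. The medians lie between -0.26 for canonical PRC1 (0.036 without Ezh2 KO replicate 2 and Ctrl replicate 1) and 0.10 for the PRC1.1 partners, and 0 of these genes passed the test.

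Canonical PRC1 genes and the enzymes that take ubiquitin off H2A were counted beside the variant subunits. Of 11 tested canonical genes 0 passed, 10 had a negative log2 fold change, and the median was -0.26, where 51.3% of all tested genes were positive. The difference from the variant subunits was not tested. With the replicate block, 3 of the 11 had an unadjusted p under 0.05 in edgeR, against 9.1% of tested genes (Cbx8 and Phc1 lower in Ezh2 KO, Scml2 higher). After adjustment 0 of the 11 passed with the block. In 5 of the 11 (Cbx2, Cbx6, Cbx7, Phc1 and Scmh1) Ezh2 KO replicate 2 was the lowest library and Ctrl replicate 1 the highest, as for Ring1 and L3mbtl2 and for 14.2% of all tested genes. Cbx2, a CBX reader gene, was at 25.5, 4.36 and 11.2 CPM in Ezh2 KO replicates 1 to 3 and 30.3, 21.8 and 10.7 CPM in Ctrl replicates 1 to 3; it and the other 4 of this count were named after their values were seen. Without these 2 libraries, an alternative chosen after seeing the data, 5 of the 11 were negative and the median was 0.036. The named ones are Cbx8, an H3K27me3 reader, at 0.777 ± 0.318 CPM in Ezh2 KO and 1.45 ± 0.198 CPM in Ctrl, and Scml2, a germline polycomb gene, at 6.14 ± 1.51 CPM in Ezh2 KO and 3.87 ± 0.850 CPM in Ctrl (SD, n = 3 each). In both the groups did not overlap, which held for 2 of the 11 genes and 8.09% of tested genes, and the adjusted p was 0.976 for each in edgeR. These 2 are named for having the smallest unadjusted p of the list. Of 6 tested genes of H2A ubiquitin removal 0 passed, with a median of -0.08. Of the H2A deubiquitinase genes named, Usp21 stood at 59.6 ± 35.9 CPM in Ezh2 KO and 87.6 ± 26.0 CPM in Ctrl, and Mysm1 at 103.2 ± 22.6 CPM in Ezh2 KO and 87.4 ± 34.8 CPM in Ctrl (SD, n = 3 each).

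Per kilobase, the order of the members was led by Rnf2, at 40.6 ± 3.63 CPM per kilobase in Ezh2 KO and 34.0 ± 5.99 in Ctrl, and by L3mbtl2, at 18.8 ± 10.1 in Ezh2 KO and 22.9 ± 6.65 in Ctrl (SD, n = 3 each). Rnf2 was the highest member in 5 of 6 libraries, and L3mbtl2 in Ctrl replicate 1. Rybp, Kdm2b, Pcgf1 and Pcgf6 followed with ranges over the 6 libraries of 6.83 to 12.5, 6.71 to 11.3, 7.97 to 11.7 and 5.19 to 10.3 CPM per kilobase, so these neighbours did not differ beyond their spread. Pcgf3 (2.35 to 3.54), Yaf2 (2.32 to 3.17) and Ring1 (0.679 to 5.03) lay lower and overlapped as well. Pcgf5 (0.851 to 1.47 CPM per kilobase) was the lowest member in 5 of 6 libraries, and Ring1 in Ezh2 KO replicate 2. The same counts of 5 of 6 held per kilobase of the longest protein-coding transcript.

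Among the 6 PCGF genes, the 4 of the variant complexes held most of the level in each library. Their share of the summed CPM per kilobase was 79.8%, 82.5% and 82.8% in Ezh2 KO replicates 1 to 3 and 86.4%, 77.2% and 83.4% in Ctrl replicates 1 to 3. The mean was 81.7% ± 1.65 in Ezh2 KO and 82.3% ± 4.70 in Ctrl (SD, n = 3 each). Pcgf1 had the largest mean share, 36.2% ± 7.10 in Ezh2 KO and 37.7% ± 2.35 in Ctrl, and Pcgf6 came next with 27.7% ± 7.74 in Ezh2 KO and 29.8% ± 8.51 in Ctrl, though Pcgf6 exceeded Pcgf1 in Ezh2 KO replicate 3 and Ctrl replicate 1. Per kilobase of the longest protein-coding transcript the shares in Ctrl were 37.8% for Pcgf6 and 37.2% for Pcgf1, so the order of these 2 in Ctrl depends on the length used. Canonical Pcgf2 held 15.1% ± 1.64 in Ezh2 KO and 14.6% ± 3.69 in Ctrl, and Bmi1 held 3.20% ± 0.446 in Ezh2 KO and 3.06% ± 1.07 in Ctrl (SD, n = 3 each).

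**Figure D4:**
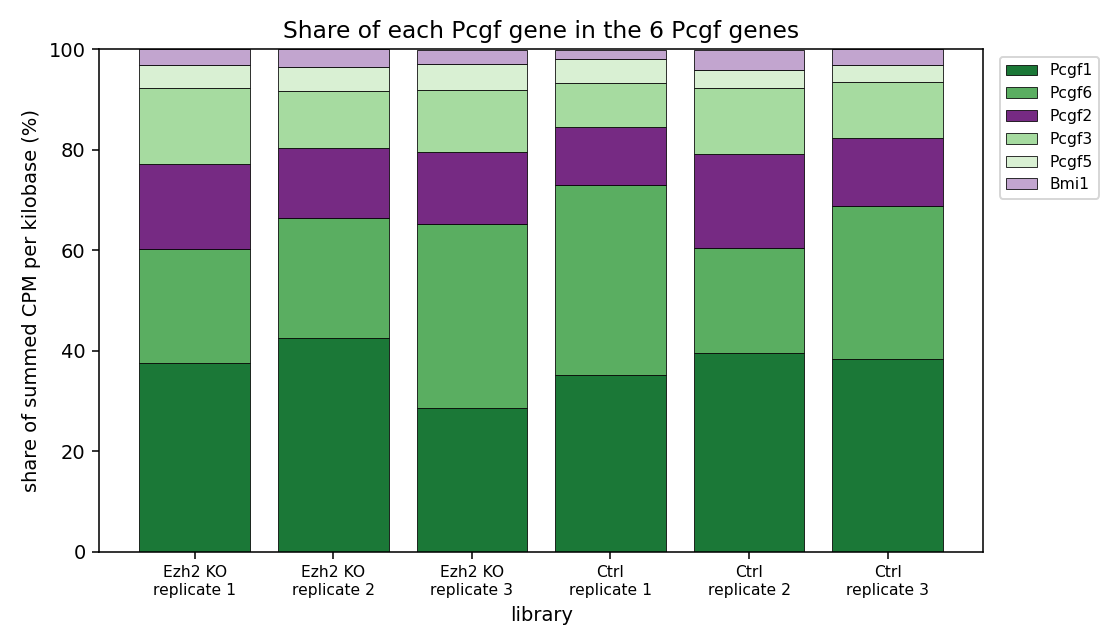
Share of each PCGF gene in the summed CPM per kilobase of the 6 genes (percent, stacked), for the 3 Ezh2 KO libraries at the left and the 3 Ctrl libraries at the right, with variant genes in green and canonical genes in purple. The variant genes make up 77.2% to 86.4% of a library, and the groups overlap.

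Ring1 and L3mbtl2, the members that varied most between libraries, also have the transcripts richest in G and C. Between Ezh2 KO replicate 2 and Ctrl replicate 1, the libraries farthest apart on the first principal component, the log2 ratio of CPM was -2.89 for Ring1 (GC content 60.7%) and -1.83 for L3mbtl2 (55.1%), and 0.60 for Rnf2 (39.5%) and 0.67 for Rybp (43.6%). Across the 10 members, Spearman's rho between GC content and this ratio was -0.78, and it was -0.54 across 15616 tested genes with a known GC content. Both are descriptions across genes that share the same pair of libraries, and genes are not independent replicates. With an offset for GC content fitted in each library, the log2 fold change was -0.36 for Ring1, 0.14 for Rnf2, -0.22 for L3mbtl2 and -0.30 for Pcgf6, with 0 members called. The values nearer to 0 by over 1.5 times were those of Ring1 and Rnf2 and of Pcgf3 (0.053), Pcgf5 (0.032), Rybp (0.050), Yaf2 (0.076) and Kdm2b (-0.00011), while Pcgf6 moved away from 0 and L3mbtl2 and Pcgf1 (-0.19) moved less. The offset was fitted to these same libraries, so it takes out any group difference that runs with GC content, and the smaller values cannot show where the differences came from. Depth and the share of counts from mitochondrial genes also differed between Ezh2 KO replicate 2 and Ctrl replicate 1. The part of GC content in the spread of each gene was not tested.

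**Figure D5:**
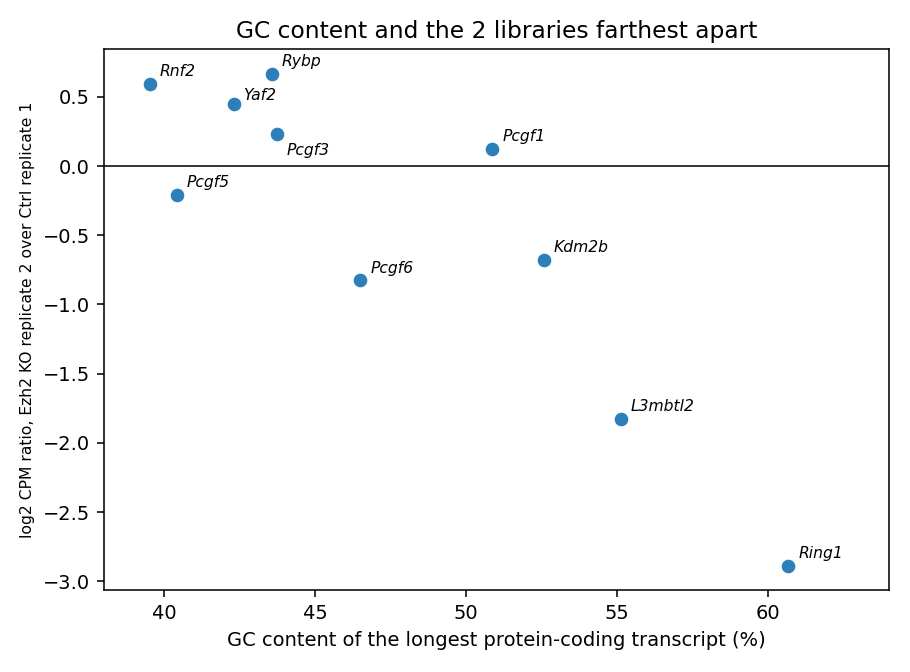
GC content of the longest protein-coding transcript of each gene (percent) against the log2 ratio of CPM in Ezh2 KO replicate 2 over Ctrl replicate 1. Ring1 and L3mbtl2, at 60.7% and 55.1% GC, have the lowest ratios, -2.89 and -1.83.

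The genes whose profiles over the 6 libraries were most like those of the ligases were sought among 12236 genes of mean log2 CPM over 1. For Ring1 these were Fzr1 (Pearson's r = 0.997 on log2 CPM), Sema5b (0.996) and R3hcc1 (0.995), with GC contents of 59.9%, 60.2% and 58.3%, and 477 genes had an r over 0.95. Fzr1, which encodes an activator of the anaphase-promoting complex, was at 141, 24.8 and 107 CPM in Ezh2 KO replicates 1 to 3 and 212, 88.4 and 87.7 CPM in Ctrl replicates 1 to 3, and so was lowest and highest in the same libraries as Ring1. For Rnf2 they were Pmpca (0.988), Galnt4 (0.988) and Arcn1 (0.986), and 31 genes had an r over 0.95. Their GC contents of 48.5%, 45.7% and 44.0% lay above that of Rnf2 (39.5%) and below the median of 50.2% over tested genes. These likenesses describe 6 libraries and were not tested.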

How the data were processed

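Read counts of 6 RNA-seq libraries of mouse PGCLCs on day 4 were analysed, 3 Ezh2 KO and 3 Ctrl. The authors deposited raw counts of reads for each Ensembl gene ID. Per the submitters' processing notes, the tools were featureCounts, TopHat2 2.0.11, Trimmomatic 0.33 and CASAVA 1.8.4, and the builds NCBIM37 and mm9; the sources used here give neither settings, strand nor annotation version. Symbols, exon lengths and GC content came from GENCODE M21 by gene ID, and promoter sequences from RefSeq (GRCm38.p6).

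Genes passing filterByExpr (minimum count 10) were tested: 16420 of 37991. The test was the robust quasi-likelihood F-test of edgeR 4.0.16 (R 4.3.3) on TMM-scaled counts, group as the only term, two-sided, Benjamini-Hochberg adjusted over all tested genes, threshold 0.05. SEs were derived from the F statistic. On drawn counts with 200 altered genes, it called 17.3% of the 2-fold and 77.5% of the 4-fold changes among 16420 genes. It also called 5 unaltered genes. Each gene was drawn independently, without the variation that the real libraries share across genes, so the rates may differ in the real data. Levels of different genes were compared as CPM per kilobase of exon union.

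Deviations from the group means correlated at 0.583, 0.368 and 0.192 between same-numbered Ezh2 KO and Ctrl libraries. For this reason a fit with the replicate number as a block was made as an alternative. The labels give no pairing beyond the shared number, so values of single genes are from the fit on group alone unless the block is named. Alternatives were DESeq2 1.42.0 and its size factors, limma-voom (limma 3.58.1), other filters (none, or a mean of 20 counts with a CPM of 1 or more in 3 libraries), a GC offset (loess, span 0.5) and left-out libraries. Named genes were the members, Ezh2, the 2 genes of smallest unadjusted p in each partner or target list, and the 3 most alike in pattern to Ring1 and Rnf2. The members and lists were chosen with earlier results of these data known.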

Additional observations from a re-analysis of the deposited data

How the results depend on the processing

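Of the 160 log2 fold changes of members under the alternatives, 151 kept their direction and 9 did not; all stayed above the adjusted threshold of 0.05, the lowest adjusted p being 0.545. Leaving out both ends of the first principal component (Ezh2 KO replicate 2 and Ctrl replicate 1) gave 0.38 for Ring1, 0.11 for Pcgf6, 0.27 for Kdm2b, -0.11 for Rybp and 0.31 for L3mbtl2, each with a changed sign; the median of the canonical PRC1 list changed sign too (0.036 against -0.26), and those of the other 5 lists did not (0.012 for PRC1.1 partners, -0.047 for PRC1.3 and PRC1.5 partners, -0.061 for PRC1.6 partners, -0.039 for H2A ubiquitin removal and 0.21 for germline targets). Leaving out 1 library at a time changed the sign for Pcgf3 (-0.043 without Ctrl replicate 1), Kdm2b (0.16 without Ezh2 KO replicate 2, 0.091 without Ctrl replicate 1) and L3mbtl2 (0.072 without Ezh2 KO replicate 2); the ranges were -0.95 to -0.03 for Ring1, 0.13 to 0.35 for Rnf2, -0.30 to -0.11 for Pcgf1, 0.042 to 0.38 for Pcgf5, -0.58 to -0.034 for Pcgf6, 0.010 to 0.38 for Rybp, 0.095 to 0.25 for Yaf2, -0.043 to 0.22 for Pcgf3, -0.21 to 0.16 for Kdm2b and -0.72 to 0.072 for L3mbtl2. DESeq2 called 20 genes in all, and 50 with the replicate block, against 0 in edgeR, which called 0 with the block too; 0 members were among them, and the replicate block changed no call in edgeR. The block moved the log2 fold change of Ring1 to -0.68 and of L3mbtl2 to -0.40. For Ring1 the SE was 0.35 with the block and 0.56 without it, and the unadjusted p with the block was 0.0874 in edgeR. The Yaf2 share was 22.9% in Ctrl per longest transcript, and without length 10.6% in Ezh2 KO and 9.94% in Ctrl. The variant PCGF share in Ezh2 KO was 86.1% per longest transcript and 85.3% without length. The causes of these differences were not tested. With libraries left out in turn, the Ring1 share was 3.99% to 6.41% in Ezh2 KO and 5.37% to 10.5% in Ctrl. Ring1 rests on 57 reads in its lowest library, and the 95% intervals of Ring1 and L3mbtl2, and that of Pcgf6 only in the fit without the block, include 2-fold differences.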
